A study of Mus musculus with 2 samples.

Results

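Cadherins and protocadherins are cell surface proteins that hold cells together or sort them through calcium-binding cadherin repeats outside the cell. The genes described here are those whose probe sets on the array carry a single symbol of the form Cdh or Cdhr with a number, Pcdh, Celsr, Fat, Dchs or Clstn. The rule found 122 probe sets and 72 genes, out of 34958 probe sets with 1 symbol that name 18194 genes, on an array of 45101 probe sets. Of these genes 49 lie outside the protocadherin clusters, with 93 probe sets, and 23 belong to the clusters, with 29 probe sets. A further 6 probe sets carry several Pcdha symbols at once, are not counted as members and are described separately. The rule reads symbols and no signal.

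Total RNA of wild-type whole mouse embryos at E14.5 was hybridised to 2 Affymetrix arrays run as duplicates of 1 condition. No treatment or mutant was involved, so nothing was compared between groups. Embryos of the NMRI and C57/BL6 strains were in use in the study, and which strain the arrays hold is not stated. Since no source names the embryos or extracts behind each array, the spread between the arrays may be technical. In RNA of a whole embryo, few cells with much of a transcript and many cells with little of it cannot be told apart.

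A signal is the brightness of a probe set on a linear scale, scaled by the authors to a trimmed mean of 100 per array. Receptor genes of smell, pheromone sensing and bitter taste, taken as silent in the embryo, set the background through 81 probe sets. Their 95th percentile, the bound, stood at 27.9 on array 1 and 33.8 on array 2. A gene counts as above background if some probe set of it passed on each array. Probe sets differ in how brightly they respond, so signals of different genes give no order of their transcript levels. In a check of the tissue label, 14 of 14 marker genes of liver, muscle, neurons, cartilage, red cells, epidermis and endothelium passed. Of 3 measured genes of adult photoreceptors and spermatids 0 passed. Among these, Prm1 of spermatids lay just under the bound at 27.6 and 32.8. The endothelial marker Pecam1 lay not far above it at 52.2 and 38.8.

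As background, classical cadherins of types I and II join like cells at adherens junctions and bind catenins inside the cell, which link them to actin. Protocadherins adhere more weakly and are known mostly from neurons, where clustered protocadherins give each cell a surface identity through the choice of promoter. The giant Fat, Dachsous and Celsr proteins act in planar polarity and tissue growth, and calsyntenins couple membrane cargo to kinesin in neurons.

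Above background were 39 of the 72 genes (54.2%), against 65.5% of all genes on the array. The genes outside the clusters passed in 31 of 49 cases (63.3%), near the share of all genes, and the clustered protocadherins in 8 of 23 (34.8%). Coverage by probe sets moved with the call: of all genes, 48.6% passed with 1 probe set, 79.9% with 2 or 3 and 93.6% with 4 or more. Members outside the clusters passed in 11 of 22 cases with 1 probe set (50%) and in 17 of 24 with 2 or 3 (70.8%). Clustered members passed in 6 of 18 cases with 1 probe set (33.3%) and in 2 of 5 with 2 or 3 (40.0%). All 3 members with 4 or more probe sets, Cdh10, Cdh13 and Pcdh10, passed. Counted as probe sets, 58 of 122 lay above the bound on both arrays, against 55.6% of all probe sets with 1 symbol. These counts describe 2 arrays, and genes are not replicates, and no p-value was computed.

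**Figure D1:**
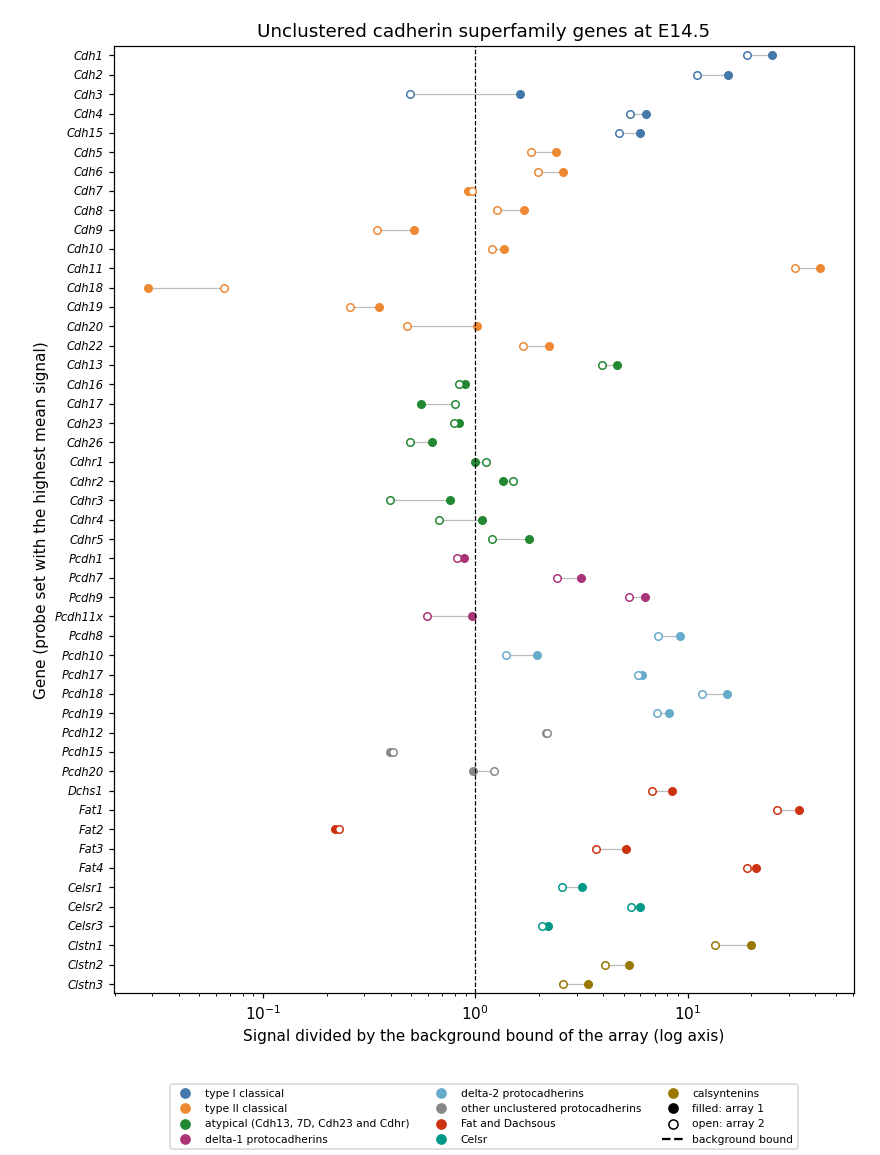
Signal of the probe set with the highest mean for each of the 49 genes outside the clusters, divided by the background bound of its array on a log axis, with array 1 filled, array 2 open and colours for classes. The dashed line is the bound; the delta-2 protocadherins, Celsr genes and calsyntenins lie to its right on both arrays, and 13 genes lie to its left on both.

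Type I classical cadherins passed in 4 of 5 cases (80%), against 65.5% of all genes. Cdh1 encodes E-cadherin, the adhesion molecule of epithelia, and its only probe set (1448261_at) had signals of 696.6 on array 1 and 641.1 on array 2. Cdh2 encodes N-cadherin of neural tissue, heart and mesenchyme, and gave 430.5 and 374.8 with one probe set and 119.0 and 105.8 with the other. Both probe sets of Cdh2 were above the bound, and the arrays differed little beside the difference between the probe sets. Cdh4, R-cadherin of brain, retina and kidney, had 178.1 and 180.5. Cdh15 encodes M-cadherin of muscle precursors and had 167.2 and 160.3. The exception was Cdh3, the P-cadherin gene of placenta and basal epidermis, whose brighter probe set gave 45.1 on array 1 and 16.7 on array 2. Its duplicate signals thus fell on opposite sides of the bound, and the second probe set was below it at 7.9 and 13.3.

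Type II cadherins, a family with many members in neurons, passed in 6 of 11 cases (54.5%), against 65.5% of all genes. Cdh11, a cadherin of mesenchyme and bone-forming cells, had signals of 1174.0 and 1081.6 with one probe set (1450757_at) and 116.8 and 134.2 with the other. Cdh5 encodes VE-cadherin of the endothelium, and its signals were 66.8 and 62.1, with a second probe set below the bound at 13.3 and 12.3. Cdh6, of kidney tubule precursors and neural crest, had 72.0 and 66.9 and passed with both probe sets. The remaining 3 that passed are known from the nervous system. Cdh22 had 62.2 and 56.6. Cdh8 had 47.4 and 42.6, through 1 of its 3 probe sets. Cdh10 had 38.0 and 40.7, with 2 of 4 probe sets above the bound. Of the 6 genes that passed, all but Cdh11 had a signal under 2 times the bound on 1 or both arrays.

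Below the bound on both arrays were Cdh7, Cdh9, Cdh18 and Cdh19. Cdh7, of neural crest and spinal cord, lay just under it at 25.8 and 32.6. Cdh9 had 14.4 and 11.6, and Cdh18 had 0.8 and 2.2, each with 1 probe set. Cdh19, a marker of Schwann cell precursors, had 9.8 and 8.7. Cdh20 was above the bound on array 1 only, at 28.5 and 16.1. Cdh12 and Cdh24 were not analysed here.

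Cadherins outside the classical types passed in 3 of 10 cases (30%), against 65.5% of all genes. Most of these cadherin genes have 1 probe set, a coverage at which 48.6% of all genes passed. Cdh13 encodes T-cadherin, which is held by a lipid anchor and lacks a tail that binds catenins, and it passed with 2 of 4 probe sets, the brighter at 130.4 and 133.1. Cdhr2 and Cdhr5, which link the tips of microvilli in the brush border, were above the bound at 37.7 and 50.7 and at 50 and 40.4. The Cdhr5 signal lay under 2 times the bound on both arrays, as did that of Cdhr2. Cdhr1, of photoreceptors, was above the bound on array 2 only, at 27.7 and 37.8, and Cdhr4 on array 1 only, at 30.0 and 22.8.

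The other 5 of these genes were below the bound on both arrays. The kidney cadherin gene Cdh16 had 24.9 and 28.4, close to it. The intestinal cadherin gene Cdh17 had 15.5 and 27.0. Cdh23 forms the tip links of hair cells in the inner ear together with Pcdh15, and its brighter probe set had 23.4 and 26.8. Cdh26 had 17.4 and 16.7, and Cdhr3, known from ciliated airway cells, had 21.2 and 13.4. The partner Pcdh15 was below the bound with all 3 probe sets, the brightest at 11.1 and 13.8, so both tip link genes were below background.

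All 5 delta-2 protocadherins passed, a class known from brain nuclei and from paraxial mesoderm. Of these, 4 have 2 or 3 probe sets and 1 has more, and 79.9% and 93.6% of all genes with such coverage passed. Pcdh18 had signals of 427.9 and 397.4 with one probe set and 52.7 and 61.6 with a second, and was below the bound with the third at 11.0 and 9.4. Pcdh19, an X-linked gene mutated in a form of epilepsy, had 228.7 and 241.6 and passed with all 3 probe sets. Pcdh8, known as paraxial protocadherin, had 257.9 and 245.1 with a probe set of a kind open to cross-hybridisation and 132.7 and 145.8 with the other. Pcdh17 had 169.6 and 196.5 and passed with both. Pcdh10 had 54.4 and 46.9, and 3 of its 6 probe sets passed.

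Delta-1 protocadherins passed in 2 of 4 cases (50%), against 65.5% of all genes. Pcdh9 had 175.8 and 178.9, and Pcdh7 had 87.5 and 82.2, each with 2 of 3 probe sets above the bound. Pcdh1, known from airway epithelium, was below it at 24.7 and 27.8. Pcdh11x, on the X chromosome, was below it with both probe sets, the brighter at 27.0 and 20. Pcdh11x was thus near the bound on array 1 and further under it on array 2. Among the 3 other protocadherins outside the clusters, Pcdh12 of the endothelium passed through 1 of 3 probe sets at 60.0 and 73.2, and Pcdh20 was above the bound on array 2 only, at 27.2 and 41.6.

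Of the Fat, Dachsous, Celsr and calsyntenin genes 10 of 11 were above background, against 65.5% of all genes. Those with 1 probe set passed in 6 of 7 cases, against 48.6% of all such genes, and those with 2 or 3 in 4 of 4, against 79.9%. Fat1, a giant cadherin found in many epithelia, had 933.6 and 888.0. Fat4 and Dchs1 encode a receptor and ligand pair of tissue polarity. Fat4 had 587.5 and 645.8 with one probe set and 90.4 and 75.9 with the other. The brighter Fat4 probe set has an ID ending in _s_at, a kind whose probes match more than a single transcript. Dchs1 had 235.1 and 229.9. Fat3, of retina and spinal cord neurons, had 142.4 and 125.3. Both members of the Fat4 and Dchs1 pair thus passed, and the exception was Fat2, a gene of cerebellar granule cells, at 6.1 and 7.7. Dchs2 was not analysed here.

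All 3 Celsr genes, which encode cadherins with a seven-pass membrane domain, passed, against 65.5% of all genes. Celsr1, of planar polarity in epidermis and neural tube, had 88.3 and 86.9. Celsr2 had 166.6 and 182.7 with one probe set and 62.7 and 62.2 with the other. Celsr3, needed for axon tracts of the forebrain, had 61.3 and 69.3. The duplicates were close for each of them. The 3 calsyntenins passed too, with Clstn1 at 552.6 and 454.9, Clstn2 at 147.4 and 138.3 and Clstn3 at 94.4 and 87.4. Clstn1 and Clstn2 passed with both of their probe sets. The brighter Clstn2 probe set also has an ID ending in _s_at.

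The probe sets of the clustered protocadherins that carry 1 symbol lie in 22 Pcdhb genes and in Pcdhgc4. Pcdhb genes are intronless neighbours of similar sequence, so a probe set may also bind a copy next to its own gene, and how far it does was not tested. Pcdhb17 had signals of 48.6 and 52.6, Pcdhb19 47.0 and 38.5, Pcdhb21 43.9 and 39.3 and Pcdhb20 42.7 and 40.8. Pcdhb9 had 39.0 and 44.3, Pcdhb7 35.6 and 36.4, and Pcdhb16 32.7 and 38.0 through 1 of 3 probe sets. Pcdhgc4, the only gamma cluster gene that a probe set names singly here, had 38.6 and 51.5. Whether that probe set also reads other gamma genes was not tested. All 8 genes came close to the bound, with a signal under 2 times its level on 1 or both arrays. The same held for 8 of the 31 genes above background outside the clusters (25.8%) and for 21.0% of all genes above background. With the 99th percentile bound 3 of the 8 were left, Pcdhb9, Pcdhb17 and Pcdhgc4.

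Along the cluster, as genes are ordered in the GRCm38.p6 annotation, the Pcdhb genes that passed were the 7th and the 9th and then 16, 17, 19, 20 and 21 of 22. Pcdhb2 (32.8 and 25.7) and Pcdhb3 (28.5 and 29.7) were above the bound on array 1 only. The other 13 genes were below it on both arrays, with signals of their brightest probe sets from 2.2 to 23.7. The 19 clustered probe sets below the bound on both arrays ranged from 0.6 to 23.7.

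**Figure D2:**
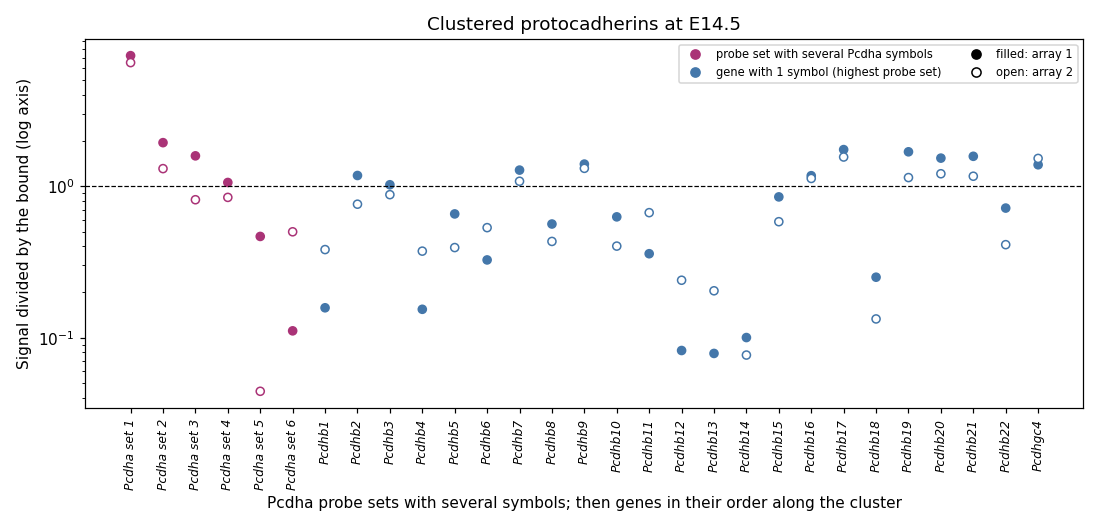
Signal divided by the background bound of the array (log axis, dashed line at the bound) for the 6 probe sets with several Pcdha symbols, numbered by signal on array 1, and for the brightest probe set of each clustered gene in its order along the cluster, with array 1 filled and array 2 open. Pcdha set 1 lies at 7.25 and 6.53 times the bound, and no Pcdhb gene reaches 2 times the bound.

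The 6 probe sets with several Pcdha symbols carry 14 symbols in 3 cases and 9 in the other 3. Alpha isoforms are known to share the constant exons at their ends, so a probe set there measures the cluster and not an isoform. Of those with 14 symbols, 1420798_s_at had signals of 202.4 and 220.6 and 1424341_s_at had 54.0 and 44.1, both above background. The third was above the bound on array 1 only, at 44.2 and 27.5. Of those with 9 symbols, none was above the bound on both arrays: 1 had 29.5 and 28.5, above it on array 1 only, and the others had 3.1 and 16.9 and 13 and 1.5. No Pcdha gene could therefore be named singly.

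Probe sets of the same gene often fell on different sides of the bound. Of 32 members with 2 or more probe sets, 10 had all of them above the bound on both arrays, 12 had some and 10 had none. The share with some was 37.5%, against 53.3% of all genes with 2 or more probe sets. Among the 10 with all above, the brighter probe set of Cdh11, Fat4 and Clstn1 had over 5 times the mean signal of the dimmer one, with means of 1127.8 and 125.5 for Cdh11 and 616.7 and 83.2 for Fat4. Cdh4 ranged from 179.3 to 1.1. Which transcripts each probe set meets was not tested.

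**Figure D3:**
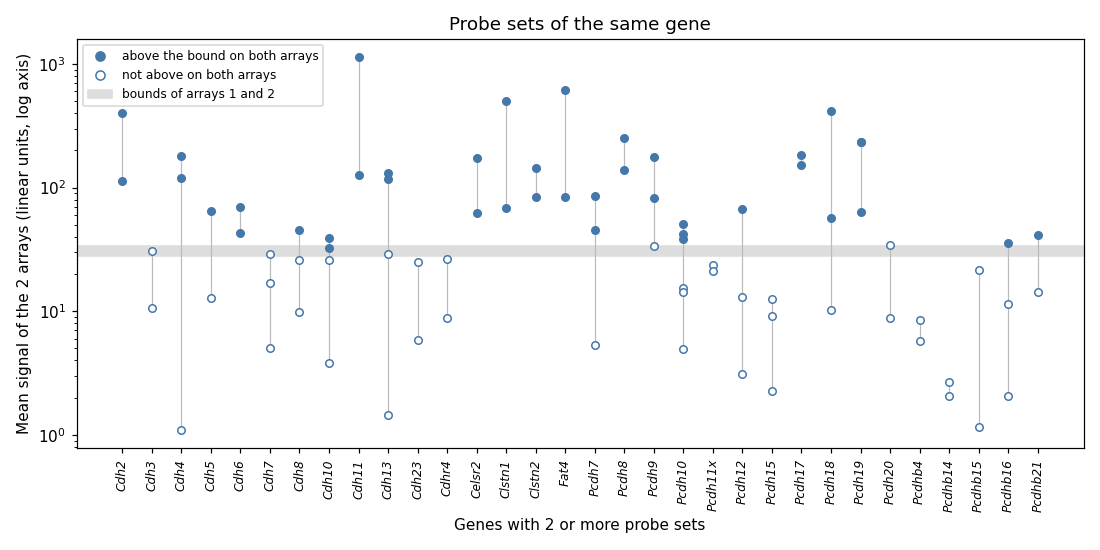
Mean signal of both arrays (log axis) for every probe set of the 32 members with 2 or more, filled where above the bound on both arrays and open otherwise, with the bounds of the arrays as a grey band. Probe sets of Cdh4, Cdh13 and Pcdh7 span the band, and those of Pcdh17 and Pcdh19 lie above it.

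The duplicates gave close values for the member probe sets that passed on both. Of 58 member probe sets above the bound on both arrays, 0 differed more than 1.5-fold after centring, against 3.74% of all probe sets that passed. The SD of their log2 difference (array 2 minus array 1) was 0.19, against 0.26 for all, and their median was -0.05 (34 lower and 24 higher on array 2). The largest differences were those of a dimmer Pcdh9 probe set (95.1 and 68.7, log2 difference -0.48), of a Cdh13 probe set (99.2 and 136.0, 0.45), of Cdhr2 (0.42), of Pcdhgc4 (0.41) and of a dimmer Clstn1 probe set (76.9 and 59.4, -0.38). A gene on opposite sides of the bound on the arrays enters no such difference. These were 7 of the 72 members (Cdh3, Cdh20, Cdhr1, Cdhr4, Pcdh20, Pcdhb2 and Pcdhb3). That is a larger share than the 860 of 18194 among all genes (4.73%). Probe sets of genes that passed could also fall on opposite sides, such as those of Cdh8 (16.9 and 35.2) and Pcdh9 (23.7 and 43.3).

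**Figure D4:**
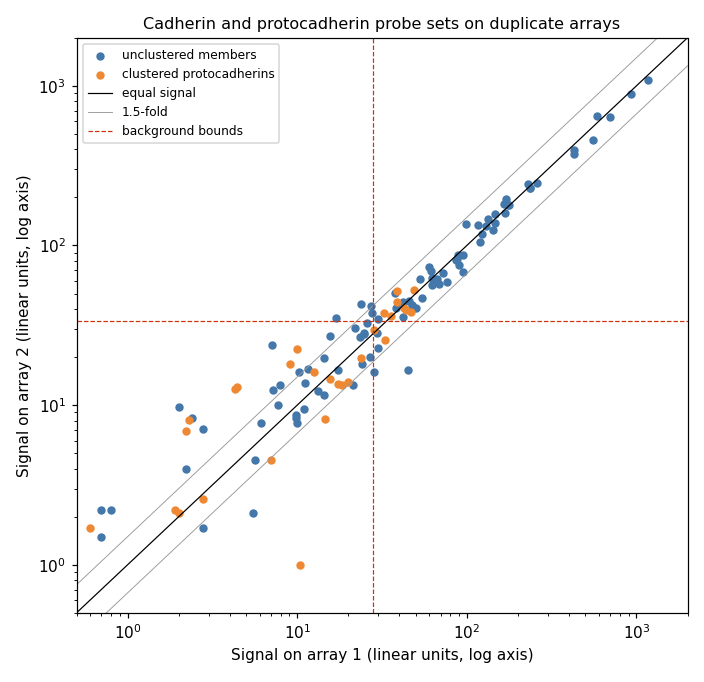
The 122 member probe sets by their signal on array 1 (horizontal) and array 2 (vertical), each a log axis, with lines of equal signal and of 1.5-fold difference and the background bounds dashed. The 58 probe sets above both bounds lie near the line of equal signal, and the spread is wider below the bounds, with Cdh3 (45.1 and 16.7) above only the bound of array 1.

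Genes that work with these proteins were above background in 42 of 46 measured cases of a list of 49 (91.3%), against 65.5% of all genes. By coverage, 9 of 11 passed with 1 probe set (48.6% of all genes), 25 of 27 with 2 or 3 (79.9%) and 8 of 8 with 4 or more (93.6%). The list was compiled by known function and holds many widely expressed genes. Of the catenins 8 of 9 passed, including Ctnnb1 (beta-catenin, 2767.8 and 2468.7), Ctnna1 (alpha-E-catenin, 1330.4 and 1292.8) and Ctnnd1 (p120-catenin, 152.3 and 136.9). The neural forms Ctnna2 (103.9 and 164.3) and Ctnnd2 (174.7 and 183.5) passed as well. The exception was Ctnna3, the alpha-T-catenin of heart and testis, at 19.6 and 12.2. All 6 junction adaptors passed, among them Vcl, Afdn and the nectin genes Nectin1, Nectin2 and Nectin3.

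All 5 repressors of Cdh1 transcription passed beside Cdh1 itself, against 65.5% of all genes. Snai2 had signals of 458.5 and 468.0, Zeb1 540.3 and 551.4, Twist1 218.3 and 176.6, Zeb2 100.1 and 118.6 and Snai1 58.0 and 57.6. Transcripts of Cdh1 and of its repressors came from the same whole-embryo RNA, so the values say nothing of either in a given cell. The proteases that trim and shed cadherins, Furin (120.7 and 144.7) and Adam10 (987.9 and 1035.9), also passed.

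All 7 partners of Fat, Dachsous and Celsr passed, with Fjx1, a kinase that modifies Fat and Dachsous, at 121.7 and 109.8, and Vangl2, a core polarity protein, at 98.4 and 94.8. Vangl1, Prickle1, Prickle2, Fzd3 and Fzd6 were the others. Of the tip link partners 1 of 4 passed (25%, against 65.5% of all genes), Myo7a at 120 and 112.8. All of these but Tmc1, with 3 probe sets, have 1 probe set, a coverage at which 48.6% of all genes passed. Ush1c (27.5 and 20.3), Tmc1 (18.2 and 9.3) and Lhfpl5 (12.2 and 4.2) were below the bound like Cdh23 and Pcdh15. The 4 regulators of the clustered protocadherins passed, with Ctcf, which joins promoters and enhancers there, at 509.0 and 447.9, Smchd1, which silences them, at 301.3 and 341.3, Rad21 of cohesin and the methyltransferase Dnmt3b. The effectors Fyn, Ptk2b, Nckap1, Cyfip2 and Wasf1 all passed, and so did Dsg2, Dsc2, Dsc3 and Ret, 4 further members of the superfamily. Ptk2b came close to the bound at 38.3 and 38.6, with 1 of 2 probe sets above it. Also under 2 times the bound on 1 array were Dsc2 (65.7 and 59.2), Dsc3 (73.7 and 63.2) and Ret (59.3 and 56.7). The same held for Nectin1 (50 and 88.7, with 1 of 3 probe sets above the bound) and Snai1 (58.0 and 57.6). Ush1g and Dsg3 were among the listed genes not analysed here.

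**Figure D5:**
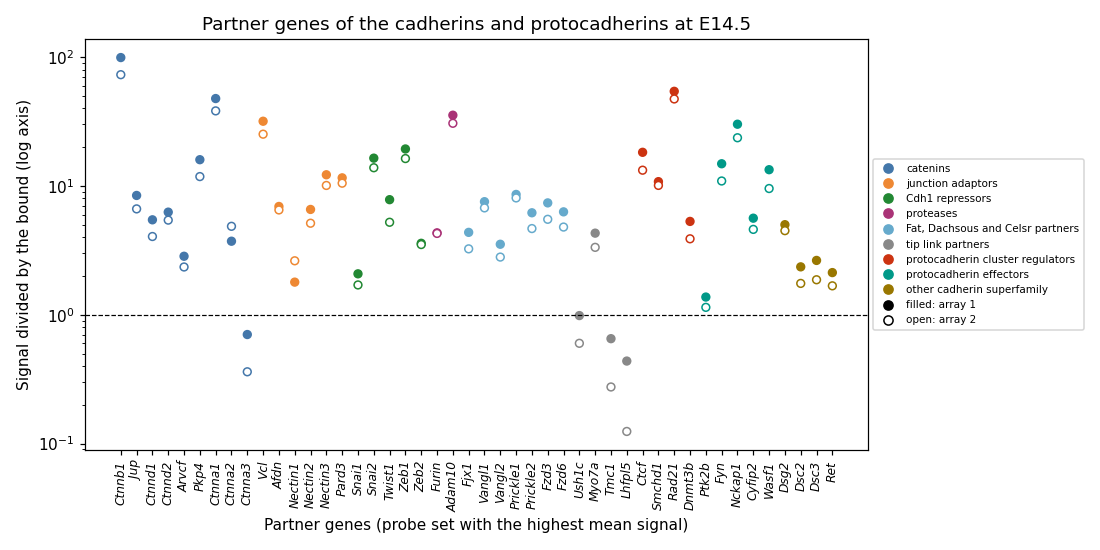
Signal of the probe set with the highest mean for 46 measured partner genes, divided by the background bound of the array on a log axis, with array 1 filled, array 2 open and colours for the groups. The dashed line is the bound; Ctnna3, Ush1c, Tmc1 and Lhfpl5 lie below it on both arrays.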

How the data were processed

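Affymetrix Mouse Genome 430 2.0 arrays, 2 in number, were hybridised with whole-embryo RNA of the E14.5 wild type. The authors read the scans with GCOS 1.3 (submitters' processing notes). Each deposited value is a linear signal intensity of 1 probe set, scaled so that the mean of an array is 100 once 2% is trimmed at each end. Detection calls were not used here, and a bound from receptor probe sets stands in their place. Names came from the array annotation, with current symbols looked up by gene identifier in RefSeq of GRCm38.p6 (34754 probe sets listed). Probe sets with several symbols (932) or not listed (9211) named no gene. Where several probe sets measure a gene, the brightest by mean signal stands for it. Array differences are log2 signals of array 2 minus array 1 over probe sets past both bounds, centred on their median.

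The members follow from gene symbols and the partner list from known function, but both were chosen with earlier results of these data known, so the choice was not blind to them. The text names every member outside the clusters, every clustered gene above background, the partner genes and the 5 largest differences. The labels give 1 condition, so no test was made. Other settings tried were the 90th and 99th percentile or the array median as bound, a call through the same probe set on both arrays or through at least 50% of the probe sets of a gene, leaving out probe sets with IDs ending in _x_at, _s_at or _a_at, whose probes match more than a single transcript, a single array, no centring, quantile normalization, and no filter with a pseudocount of 16. A bound of 2 times the main one was added after seeing the data. The steps were tested on simulated arrays whose expressed signals mostly lay well above the bound, so calls near the bound were not tested. The number of arrays limits the precision. Computations used Python 3.11.15, pandas 2.3.3, numpy 2.4.6 and matplotlib 3.10.9.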

Additional observations from a re-analysis of the deposited data

How the results depend on the processing

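Members above background numbered 39. The 99th percentile as bound gave 32, the 90th gave 43, and a single array gave 41 or 44. At 2 times the bound there were 23. Outside the clusters the 31 became 29 to 34 under the settings chosen at the outset, 33 or 34 with a single array, and 23 at 2 times the bound. The clustered protocadherins changed most, from 8 to 3 with the 99th percentile and to 0 at 2 times the bound, their signals being close to it; a single array gave 8 or 10. Partner genes stayed between 36 and 42, with 42 for each array by itself. The 36 were out of 46 at 2 times the bound (78.3%). They were out of 39 without the probe sets ending in _x_at, _s_at or _a_at (92.3%). The share of members stayed below that of all genes under every setting run, and the share outside the clusters lay between 4.86 percentage points below it and 2.61 above. With no filter and a pseudocount of 16, 4 of 122 member probe sets differed more than 1.5-fold between the arrays: the brighter one of Cdh3, and dim ones of Pcdhb4, Cdh8 and Pcdh10. The median difference of the members stayed between -0.06 and -0.03. Cdh10 and Cdhr5 were among those lost with the 99th percentile, and Cdh7, Cdhr1, Pcdh20 and Pcdhb3 were gained with the 90th. With at least 50% of the probe sets required, Cdh8, Pcdh12 and Pcdhb16 were lost. Without the probe sets ending in _x_at, _s_at or _a_at, 38 members passed, since Cdhr5 then had no probe set left. Absence of a transcript cannot be read from a signal under the bound.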
